A study of Homo sapiens with 4 samples.

Results

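The E2F and pocket protein family was followed through 4 RNA-seq libraries of MCF10A cells. The 10 genes were chosen by symbol, E2F1, E2F2, E2F3, E2F4, E2F5, E2F7, E2F8, RB1, RBL1 and RBL2, and all 10 were found among the 18840 genes of the table. MCF10A is a spontaneously immortalised, non-tumorigenic mammary epithelial line grown here in serum, insulin, EGF, cholera toxin and hydrocortisone, and every library came from cells that stably carried a pBabe retroviral construct: the empty vector, GFP, miR-105 or MYC. There was 1 library of each, so no difference has a replicate check, and the number of clones or transductions behind a line is not stated. The empty vector and GFP lines are the controls, and the design sets cells with miR-105 and cells with MYC beside them. The CDK inhibitor genes CDKN2A and CDKN2B had 0 reads in all 4 libraries. MCF10A is known to have lost this locus.

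E2F proteins are transcription factors that bind promoters of genes for S phase, most of them as dimers with a DP partner. E2F1, E2F2 and E2F3 are the activators, E2F4 and E2F5 act mainly as repressors with a pocket protein, and E2F7 and E2F8 repress without DP or pocket protein. The pocket proteins RB1 (pRB), RBL1 (p107) and RBL2 (p130) hold E2F factors in check until cyclin-dependent kinases phosphorylate them. The complex of p130, E2F4 and the MuvB proteins, called DREAM, is known for silencing cell cycle genes in resting cells, while E2F1 and the p107 gene are themselves textbook E2F targets. In mammary epithelium, as elsewhere, loss of pRB control is a common step in tumours.

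The promoters are shown first because several members are known to be bound by the family they belong to. RefSeq windows (GRCh38.p14) from 250 bases before to 50 bases after a transcript start were read for 8 of the 10 members, with 10 windows in all, that of RB1 included. No window was searched for E2F5 or E2F8. The window listed for RB1 began at a start 172.7 kb inside the gene and is not used. The starts listed for RBL2 lay 494 and 1642 bases inside the gene as GENCODE v29 gives it, so its windows do not reach that gene start. Windows were searched on both strands for the E2F motif, spelled as any of TTTCCCGC, TTTCGCGC, TTTGCCGC and TTTGGCGC, for the CHR element of MuvB, TTTGAA, and for the E-box of MYC, CACGTG; no match overlapped another in the members shown. Below are the 250 bases upstream of the start, with E2F matches in capitals, for the pair of members with 2 matches (E2F1 and RBL1), for E2F2 with 1, and for E2F7 and RBL2 with none.
E2F1, minus strand, chr20:33686386-33686635: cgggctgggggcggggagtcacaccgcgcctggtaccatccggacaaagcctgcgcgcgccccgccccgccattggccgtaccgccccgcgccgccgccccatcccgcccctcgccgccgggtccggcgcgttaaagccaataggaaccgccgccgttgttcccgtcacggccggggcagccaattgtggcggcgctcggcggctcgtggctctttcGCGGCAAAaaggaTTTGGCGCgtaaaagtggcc
RBL1, minus strand, chr20:37095998-37096247: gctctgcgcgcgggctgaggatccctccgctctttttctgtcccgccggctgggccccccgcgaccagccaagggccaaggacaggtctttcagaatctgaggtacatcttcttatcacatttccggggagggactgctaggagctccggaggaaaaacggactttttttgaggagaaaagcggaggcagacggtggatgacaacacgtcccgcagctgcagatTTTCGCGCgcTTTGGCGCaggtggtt
E2F2, minus strand, chr1:23531234-23531483: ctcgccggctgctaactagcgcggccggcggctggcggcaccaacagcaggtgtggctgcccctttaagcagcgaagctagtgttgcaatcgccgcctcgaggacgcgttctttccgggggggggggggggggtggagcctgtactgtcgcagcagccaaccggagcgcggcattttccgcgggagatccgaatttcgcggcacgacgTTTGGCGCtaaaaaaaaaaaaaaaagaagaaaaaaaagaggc
E2F7, minus strand, chr12:77065570-77065819: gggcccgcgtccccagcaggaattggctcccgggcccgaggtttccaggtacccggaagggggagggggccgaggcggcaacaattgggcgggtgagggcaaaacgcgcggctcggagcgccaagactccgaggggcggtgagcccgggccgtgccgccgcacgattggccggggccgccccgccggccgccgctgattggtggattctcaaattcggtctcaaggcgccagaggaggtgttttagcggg
RBL2, plus strand, chr16:53434221-53434470: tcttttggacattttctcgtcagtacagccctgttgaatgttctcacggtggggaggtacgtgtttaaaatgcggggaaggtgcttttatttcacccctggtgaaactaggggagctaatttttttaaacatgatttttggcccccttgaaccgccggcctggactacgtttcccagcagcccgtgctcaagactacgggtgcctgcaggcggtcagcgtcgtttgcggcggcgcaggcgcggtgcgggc

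In E2F1 the matches began 33 and 20 bases before the start, the first of them on the antisense strand, and in RBL1 26 and 16 bases before it. E2F2 had its match 42 bases before the start, and E2F3, at the first of its 2 listed starts, had 1 match 53 bases before it and a CHR match at 65 bases. E2F4 and E2F7 had no match to any of the 3 motifs. RBL2 had a CHR match 24 bases after its first listed start, and the other E2F3 start had an E-box 80 bases before it. Of all 35116 RefSeq windows of this length, 3.31% held an E2F match, 0.145% at least 2, 15.2% a CHR match and 7.26% an E-box. In these shares overlapping matches on opposite strands count as 2. A match is a run of letters and not a measured binding site.

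**Figure D1:**
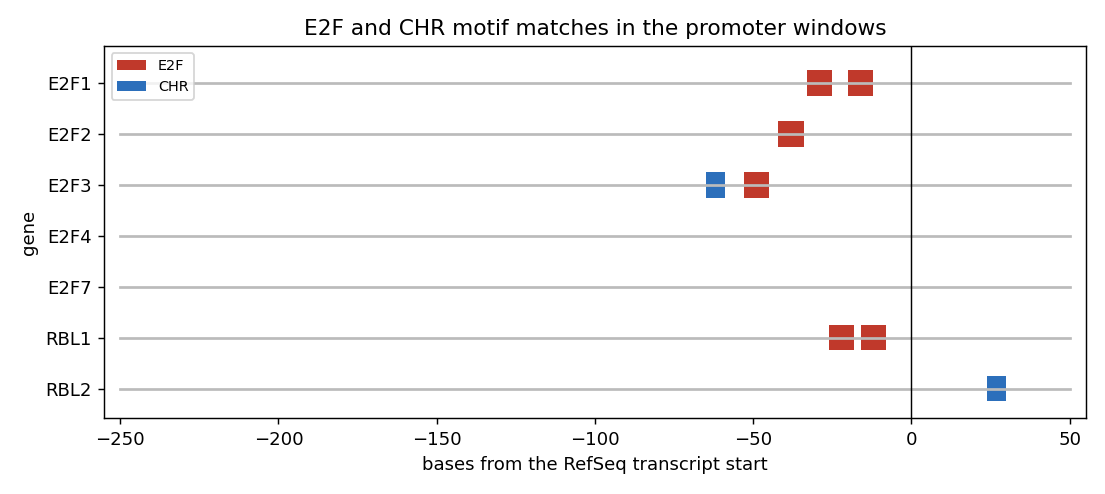
Matches to the E2F motif (red) and the CHR element (blue) in the promoter windows of 7 members, plotted by distance in bases from the RefSeq transcript start (vertical line). E2F1 and RBL1 each carry 2 E2F matches within 33 bases of the start, E2F2 and E2F3 carry 1, and E2F4, E2F7 and RBL2 carry none. The RBL2 window lies inside the gene as GENCODE v29 gives it.

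Read totals ran from 6859698 (miR-105) to 14025115 (GFP), so that 1 read was worth between 0.0722 and 0.157 CPM, the read count scaled to a common library total with TMM factors. Intervals in brackets are exact 95% intervals for counting error alone, which leave out the spread between cultures and treat reads as independent molecules. MYC mRNA was 207, 198, 463 and 232 CPM in the vector, GFP, miR-105 and MYC libraries, so the transcript named by the MYC label was highest under another label, and directions below belong to the library labelled MYC. All 11 mammary epithelial markers in the table, keratins KRT5, KRT14 and KRT17 among them, reached at least 1 CPM in every library, with sums between 10725 and 16226 CPM. Single markers differed between libraries: in miR-105 KRT14, KRT17, ITGB4 and LAMB3 were 2-fold lower than both controls and KRT5 and KRT6A higher, and in MYC KRT17 and CDH1 were lower and KRT5 and TP63 higher. KRT17 stood at 6927, 5131, 766 and 1777 CPM in vector, GFP, miR-105 and MYC, and TP63 at 7.14, 14.4, 6.12 and 77.2 CPM. The part of these differences in the members' results was not tested. Of 9 fibroblast, 6 immune and 5 endothelial markers, 3 or 4, 2 or 3 and 2 reached 1 CPM, and PTPRC, the pan-leukocyte marker, had 1 read in all. The summed fibroblast, immune and endothelial levels ranged over 118 to 216, 21.4 to 85.5 and 3.61 to 92.2 CPM; the miR-105 library was lowest in the first and the last, and the part of other cells in the results was not tested. In bulk RNA, more cells of a kind and more RNA per cell cannot be told apart.

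In the library labelled miR-105, 6 of the 10 members were at least 2-fold higher than in both controls: E2F1, E2F2, E2F7, E2F8, RB1 and RBL1. None was 2-fold lower. By the same rule 14.7% of the 12484 genes compared were higher and 16.6% lower. The rule asks for a 2-fold difference on log2(CPM + 0.5) from the vector library and from the GFP library, among genes whose average over the libraries was 1 CPM or more. All 10 members passed that filter, E2F2 through the miR-105 library only, since its mean over the others was under 1 CPM. The median log2 fold of the members, averaged over both controls, was 2.02, against 0.0052 for all genes. No member reached 2-fold in the library labelled MYC, where 9.03% of genes were higher and 10.4% lower (19.4% in all), and none did between GFP and vector, where 3.06% were higher and 1.03% lower (4.09% in all). In miR-105 the share in both directions was 31.3%. With vector and GFP taken as 1 control group, edgeR's quasi-likelihood test called 8 members higher in miR-105, adding E2F3 and E2F4 to the 6, where it called 39.3% of genes (19.5% higher, 19.8% lower), and 0 in MYC (2 at an unadjusted p under 0.05), where it called 22.7% (10.9% higher, 11.8% lower). DESeq2 called the same 6 in miR-105, where 26.9% of genes were called (12.9% higher, 14% lower), and 0 in MYC (0 at an unadjusted p under 0.05), where 14.1% were (5.63% higher, 8.43% lower). These tests rest on 1 residual degree of freedom and compare libraries, not conditions.

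Among the activators, E2F1 and E2F2 were scarce outside the miR-105 library and plentiful in it, and E2F3 differed far less. E2F1, the activator best known for driving S phase entry, stood at 2.81 CPM in the vector library (26 reads), 2.02 in GFP (28 reads), 62.7 in miR-105 (400 reads) and 1.23 in MYC (13 reads). The miR-105 library thus stood alone and high, 22.3-fold (15.01 to 34.6) above vector and 31.0-fold (21.1 to 47.3) above GFP. In the library labelled MYC E2F1 was at its lowest, 2.28-fold (1.13 to 4.83) below vector and 1.64-fold (0.823 to 3.45) below GFP, the second of which is within counting error. E2F2 stood at 0.865 CPM in vector, 0.939 in GFP, 47.2 in miR-105 and 0.569 in MYC, on 8, 13, 301 and 6 reads. Its excess in miR-105, 54.6-fold (27.3 to 128) over vector and 50.3-fold (28.95 to 95.5) over GFP, was the largest ratio of the family. These intervals overlapped those of E2F1, so the rank is not resolved by counting error. For E2F2 the other libraries could not be told apart at this depth. E2F3 was expressed in every library, at 28.6 CPM in vector, 40.7 in GFP, 72.8 in miR-105 and 41.3 in MYC. It was 2.54-fold (2.18 to 2.97) above vector but 1.79-fold (1.58 to 2.03) above GFP, so it missed the 2-fold rule by the GFP library, which itself was 1.42-fold (1.22 to 1.65) above vector. In the library labelled MYC E2F3 was 1.44-fold (1.24 to 1.69) above vector and 1.02-fold (0.895 to 1.15) above GFP.

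The repressors E2F4 and E2F5 were among the E2F genes below the 2-fold rule in every comparison. E2F4, the E2F of DREAM, stood at 60.3 CPM in vector, 50.5 in GFP, 112 in miR-105 and 64.1 in MYC. The miR-105 library was highest, by 1.86-fold (1.66 to 2.08) over vector and 2.22-fold (1.998 to 2.47) over GFP, and the other libraries lay within 1.27-fold (1.14 to 1.41) of each other. E2F5, which also pairs with RBL2, stood at 10.9 CPM in vector, 9.68 in GFP, 16.5 in miR-105 and 16.8 in MYC. Here the libraries labelled miR-105 and MYC were alike, at a ratio of 0.981 (0.763 to 1.26), and both lay above the controls: 1.51-fold (1.137 to 2.002) and 1.70-fold (1.305 to 2.21) in miR-105, and 1.54-fold (1.197 to 1.98) and 1.73-fold (1.38 to 2.19) in MYC. The exons of E2F5 share 969 bases with C8orf59 on the opposite strand in GENCODE v29. Whether reads were counted by strand is not stated, so the reads of this pair of genes cannot be told apart there.

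The atypical repressors E2F7 and E2F8 had like profiles. E2F7, itself a known E2F1 target that limits E2F activity late in S phase, stood at 1.73 CPM in vector, 2.17 in GFP, 39.4 in miR-105 and 3.98 in MYC. It was 22.8-fold (13.7 to 40.4) and 18.2-fold (12.4 to 27.5) above vector and GFP in the miR-105 library. In the MYC library it was 2.30-fold (1.27 to 4.39) and 1.84-fold (1.12 to 3.04) above them. E2F8, its close relative and dimer partner, stood at 0.865 CPM in vector, 0.867 in GFP, 17.7 in miR-105 and 1.52 in MYC. It was 20.5-fold (10.1 to 48.6) and 20.4-fold (11.3 to 40.7) above the controls in miR-105. In MYC it was 1.75-fold above each, with intervals of 0.708 to 4.73 and 0.777 to 4.05 that include no difference at 16 reads. E2F7 and E2F8 had the most alike profiles of any 2 members, at a distance of 0.35 between their centred log2 levels over the 4 libraries.

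The pocket protein genes differed in direction. RBL1, which encodes p107, stood at 6.92 CPM in vector, 8.23 in GFP, 50.7 in miR-105 and 11.2 in MYC. The miR-105 library was 7.32-fold (5.58 to 9.73) above vector and 6.15-fold (4.95 to 7.68) above GFP, and the MYC library 1.62-fold (1.18 to 2.23) and 1.36-fold (1.04 to 1.77) above them. RB1 stood at 36.4 CPM in vector, 54.6 in GFP, 117 in miR-105 and 75.7 in MYC, without an overlap of counting intervals between any 2 libraries. Its excess in miR-105 was 3.21-fold (2.82 to 3.66) over vector and 2.14-fold (1.93 to 2.37) over GFP, and in MYC 2.08-fold (1.83 to 2.37) and 1.39-fold (1.253 to 1.53), while GFP itself was 1.499-fold (1.32 to 1.71) above vector. The 2-fold call of RB1 is therefore the narrowest of the 6, and is lost at a 3-fold threshold.

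RBL2, which encodes p130, was the 1 member that was lowest in the miR-105 library. It stood at 109 CPM in vector, 162 in GFP, 86.6 in miR-105 and 143 in MYC. The miR-105 library was 1.26-fold (1.14 to 1.40) below vector, 1.87-fold (1.71 to 2.06) below GFP and 1.65-fold (1.497 to 1.82) below MYC, so it missed the 2-fold rule against each. The MYC library lay between the controls, 1.31-fold (1.21 to 1.42) above vector and 1.13-fold (1.06 to 1.21) below GFP. The gap between the controls, 1.48-fold (1.38 to 1.6004), was larger than the gap between miR-105 and vector. RBL2 exons share 610 bases with AKTIP on the opposite strand, a gene at 76.4, 66.5, 29.2 and 20.2 CPM in the vector, GFP, miR-105 and MYC libraries, and what its reads add to RBL2 was not tested.

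**Figure D2:**
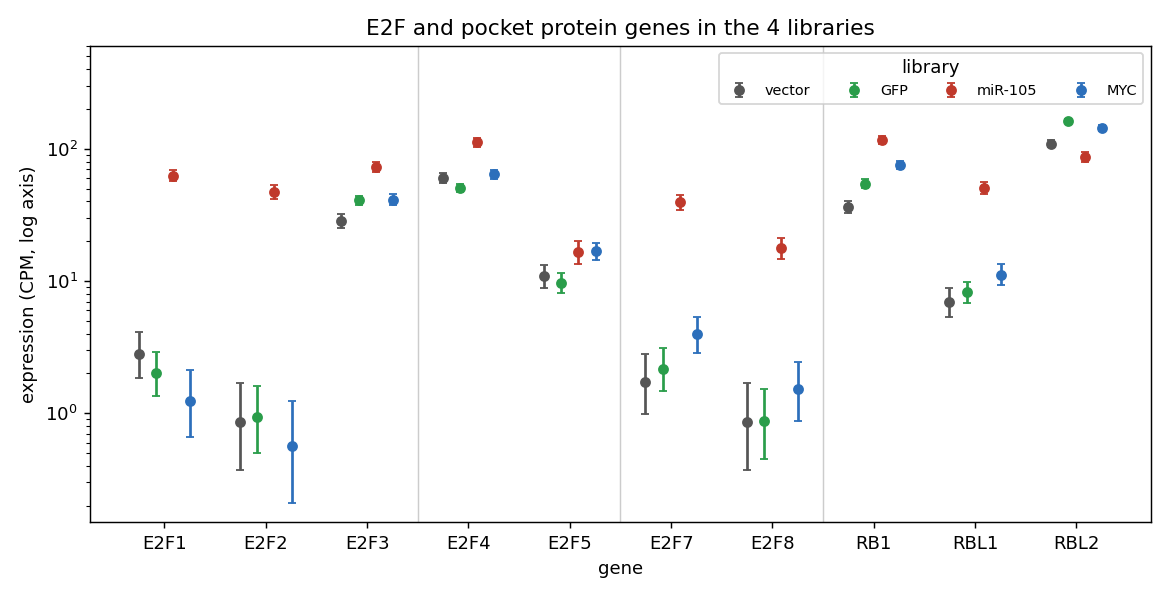
Level of each member in CPM (log axis) in the vector (grey), GFP (green), miR-105 (red) and MYC (blue) libraries, with exact 95% Poisson intervals for counting error and 1 library per point. E2F1, E2F2, E2F7, E2F8 and RBL1 stand apart in miR-105, E2F5 is alike in miR-105 and MYC, and RBL2 is lowest in miR-105.

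Counting error alone separated more members than the 2-fold rule. In miR-105, 9 of 10 members were above both controls with intervals clear of 1, as were 34.6% of all genes compared, and RBL2 was below both, as were 31.1%. Of the 9, all but E2F5 were also above the MYC library (8 of 10 members, 27.7% of genes), and RBL2 was below it too (21.3% of genes). In the library labelled MYC, 4 members, E2F5, E2F7, RB1 and RBL1, were above both controls in this sense and 0 were below both, against 29.9% and 27.7% of genes, so 4 of 10 is near the share of all genes. The intervals of GFP over vector left 1 for 4 members, E2F3, RB1 and RBL2 higher in GFP by 1.42-fold to 1.499-fold and E2F4 lower by 1.195-fold. Among all genes 32.7% were higher and 25.2% lower in GFP by this measure, so intervals clear of 1 were common between the control lines. Set directly against the MYC library, miR-105 was at least 2-fold higher for 5 members and lower for 0, where 19% of genes were higher and 19.8% lower (38.8% in all). Those 5 were E2F2 at 83.0-fold (37.7 to 228), E2F1 at 50.9-fold (29.4 to 96.4), E2F8 at 11.7-fold (6.89 to 21.1), E2F7 at 9.89-fold (7.11 to 14.1) and RBL1 at 4.53-fold (3.66 to 5.64). Comparisons of miR-105 and of MYC with the controls share the same control libraries and are not independent of each other.

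**Figure D3:**
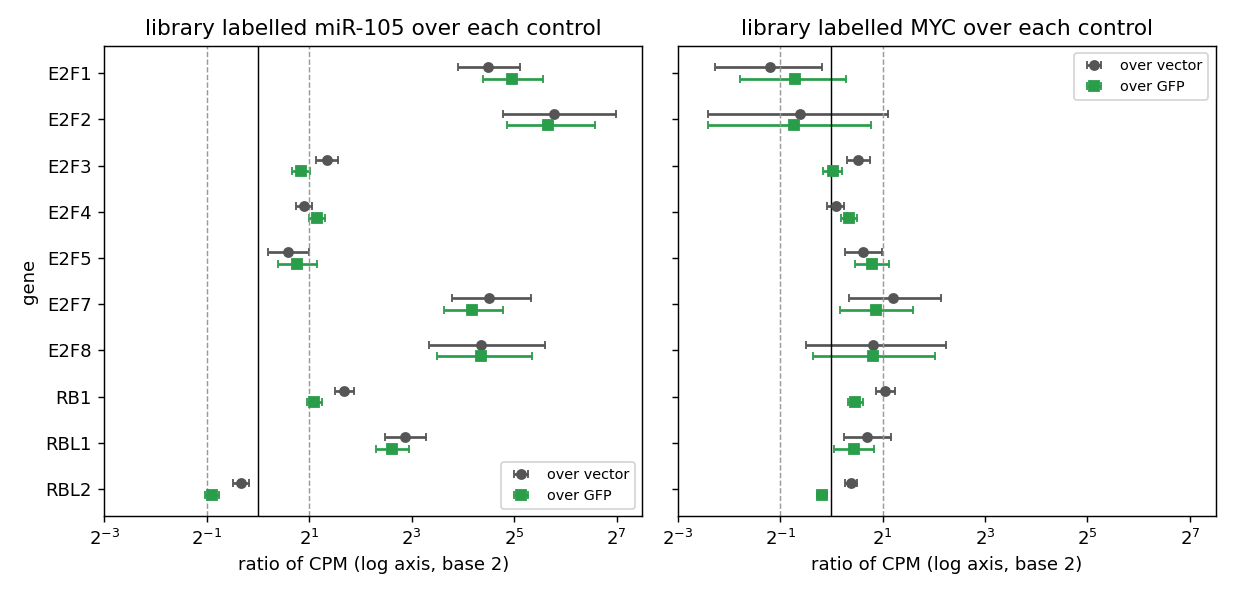
Ratio of CPM in the library labelled miR-105 (left) and MYC (right) over vector (grey circles) and over GFP (green squares) for each member, on a log axis of base 2 with exact 95% counting intervals; dashed lines mark 2-fold. On the left 6 members lie beyond 2-fold against both controls, and on the right none does.

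Levels of different members were compared per kilobase of exon, from the union of GENCODE v29 exons, since the annotation behind the counts is not stated. E2F4 and RBL2 led in both controls and in the MYC library. In the vector library E2F4 was at 16.8 CPM per kb and RBL2 at 14.9, with overlapping intervals, followed by RB1 and E2F3 at 5.65 and 5.55, also overlapping. In GFP RBL2 (22.2 CPM per kb) was above E2F4 (14.1), and in MYC they overlapped again at 19.5 and 17.9. E2F7, E2F8 and E2F2 were the lowest in the controls, at most 0.344 CPM per kb, and in MYC E2F7, E2F1 and E2F8 at 0.632, 0.492 and 0.366 each overlapped the next, and E2F8 also overlapped E2F2 at 0.104. In the miR-105 library the order differed: E2F4 at 31.3 CPM per kb, E2F1 at 25.1, RB1 at 18.1, then E2F3 at 14.1 and RBL2 at 11.8, which overlapped, E2F2 and RBL1 at 8.65 and 8.51, which overlapped, E2F7 at 6.25, E2F8 at 4.28 and E2F5 at 2.78.

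The make-up of the family differed accordingly. Activators made up 26.3% of the summed E2F level per kb in vector, 35.2% in GFP and 28.4% in MYC, but 51.7% in miR-105, where E2F1 alone was 27.1% against 1.62% to 4.32% elsewhere. The repressors E2F4 and E2F5 together were 36.9% there and between 62.6% and 71.9% in the other libraries. The atypical pair was 11.4% in miR-105 and at most 3.29% elsewhere. Among pocket proteins RBL2 was 68.7%, 69.2% and 58.9% of the summed level in vector, GFP and MYC and 30.7% in miR-105, where RB1 was 47.1% and RBL1 22.1%. The ratio of RBL2 to RBL1 per kb was 12.8 in vector, 16.0 in GFP and 10.4 in MYC, and 1.39 in miR-105. Summed activator over summed pocket protein level was 0.314, 0.277 and 0.260 in vector, GFP and MYC and 1.24 in miR-105. These are ratios of mRNA, and neither protein nor phosphorylation was measured.

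**Figure D4:**
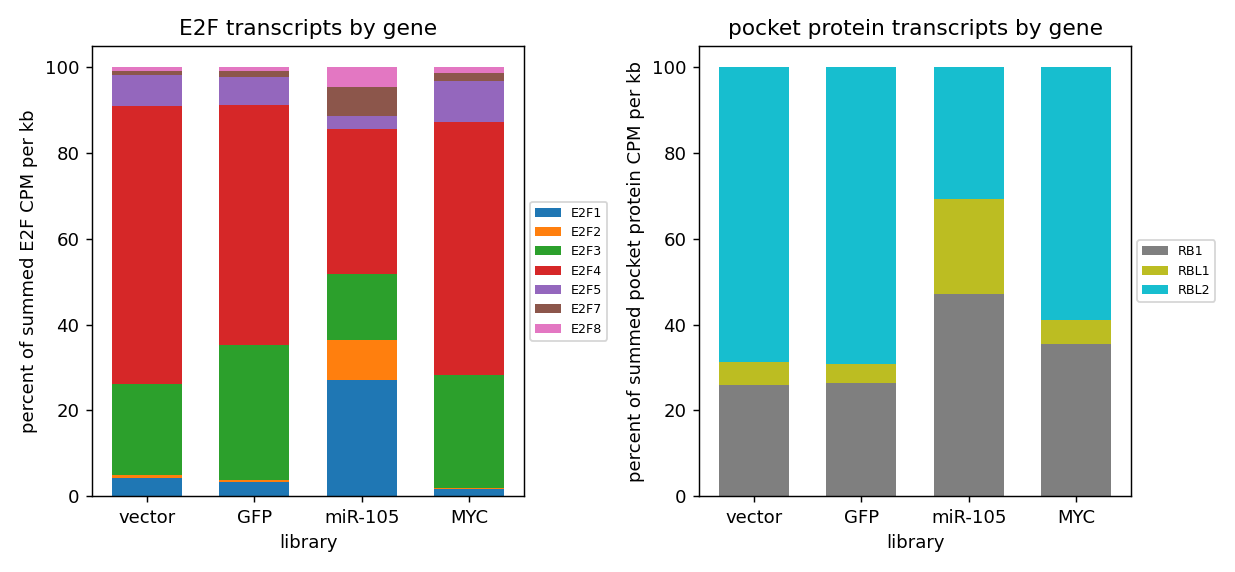
Share of each gene in the summed level per kb of exon of the 7 E2F genes (left) and of the 3 pocket protein genes (right), in percent, for each library. In miR-105 E2F1 takes 27.1% of the E2F level and RBL2 30.7% of the pocket protein level, against at most 4.32% and at least 58.9% in the other libraries.

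Genes around the family were read from textbook lists by role. Of 30 textbook E2F target genes, 29 were in the table and all 29 were at least 2-fold higher in miR-105 than in both controls, with a median log2 fold of 3.79 (13.9-fold), where 14.7% of all genes were higher. One of them, CDC45 of the replicative helicase, at 0.865, 0.506, 57.4 and 1.04 CPM in vector, GFP, miR-105 and MYC, passed the 1 CPM filter through the miR-105 library only. They included CDC6, which loads the replicative helicase, at 63.3-fold and 59.8-fold over vector and GFP, and the S phase cyclin CCNA2 at 20.1-fold and 22.1-fold. In the library labelled MYC 2 of the 29 were higher, among them the checkpoint kinase CHEK1 (3.29-fold and 3.48-fold), 0 were lower and the median was 0.23. By share this is near the 9.03% of all genes that were higher there. Of the 30 targets, 5 also stood on other lists used here: CCNE1, CCNE2, CCNA2, CDC25A and MYBL2. Their calls in miR-105 are counted again in the lists below. MYBL2, a target that joins MuvB in proliferating cells, was 96.6-fold and 140-fold above the controls in miR-105 and 1.06-fold below vector and 1.36-fold above GFP in MYC.

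The list of cyclins, CDKs and the CDK-activating phosphatase CDC25A had 9 of 11 genes higher in miR-105 and 0 lower, against 14.7% and 16.6% of all genes. Cyclin D1 (CCND1) stood at 124, 155, 393 and 34.4 CPM in vector, GFP, miR-105 and MYC, so it was highest in miR-105 and lowest in MYC. Its paralogue CCND2 stood at 34.98 CPM in MYC, on 369 reads, against 3 reads in vector and 0 in GFP and in miR-105. CDK4 was 2.17-fold and 2.97-fold higher in miR-105 and CCNE2 16.5-fold and 13.4-fold, and neither was 2-fold apart from both controls in MYC. CDK6 stood at 87.8, 145, 351 and 92.9 CPM, again highest in miR-105. Of the 5 CDK inhibitors past the filter, CDKN1A (p21) was lower in both: 503 and 516 CPM in vector and GFP against 204 in miR-105 and 115 in MYC. CDKN2C (p18) was 4.45-fold and 7.31-fold higher in miR-105. CDKN1C (p57) was lower in miR-105, at 0.784 CPM, and higher in MYC, at 63.7 CPM, against 13.9 and 5.49 CPM in vector and GFP.

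Partners of the family were less uniform, and their counts in miR-105 stand beside the same 14.7% of all genes higher and 16.6% lower, and in MYC beside 9.03% and 10.4%. The MuvB and DREAM list had 5 of 8 genes higher in miR-105: MYBL2, FOXM1, LIN9, LIN52 and LIN54. Library totals in place of TMM factors, or 2 CPM added in place of 0.5, left 3 calls. LIN37, RBBP4 and the kinase DYRK1A, which assembles DREAM, were not called. LIN37 was 2.99-fold (2.09 to 4.38) below vector and 1.94-fold (1.35 to 2.84) below GFP in miR-105, so it missed the rule by the GFP library. DYRK1A was 1.26-fold and 1.78-fold below the controls there, and RBBP4 1.48-fold and 1.32-fold above them. In MYC LIN9 alone was higher, 3.87-fold and 2.97-fold. Co-repressors of pocket proteins had 4 of 11 higher in miR-105 (SMARCA4, SUV39H1, RBBP7 and RBBP8) and SIN3B lower, with a median log2 fold of −0.03, and 0 called in MYC. Genes for E2F protein turnover had 4 of 5 higher in miR-105, among them CCNF, the F-box cyclin that targets E2F proteins, at 5.15-fold and 6.41-fold, and SKP2, the only one also called in MYC (2.77-fold and 2.39-fold). The E2F6 complex list had PCGF6 and MGA higher in miR-105 of 6 genes and 0 called in MYC. TFDP2, a DP partner, stood at 44.0, 67.7, 34.0 and 101 CPM in vector, GFP, miR-105 and MYC, lowest in miR-105 and highest in MYC. TFDP3, also a DP partner, stood at 0.649, 1.81, 3.45 and 2.65 CPM, on 6, 25, 22 and 28 reads. In miR-105 TFDP3 was 5.32-fold (2.09 to 16.0) above vector but 1.91-fold (1.03 to 3.53) above GFP, so it missed the rule. TFDP1 and E2F6 were not analysed here.

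**Figure D5:**
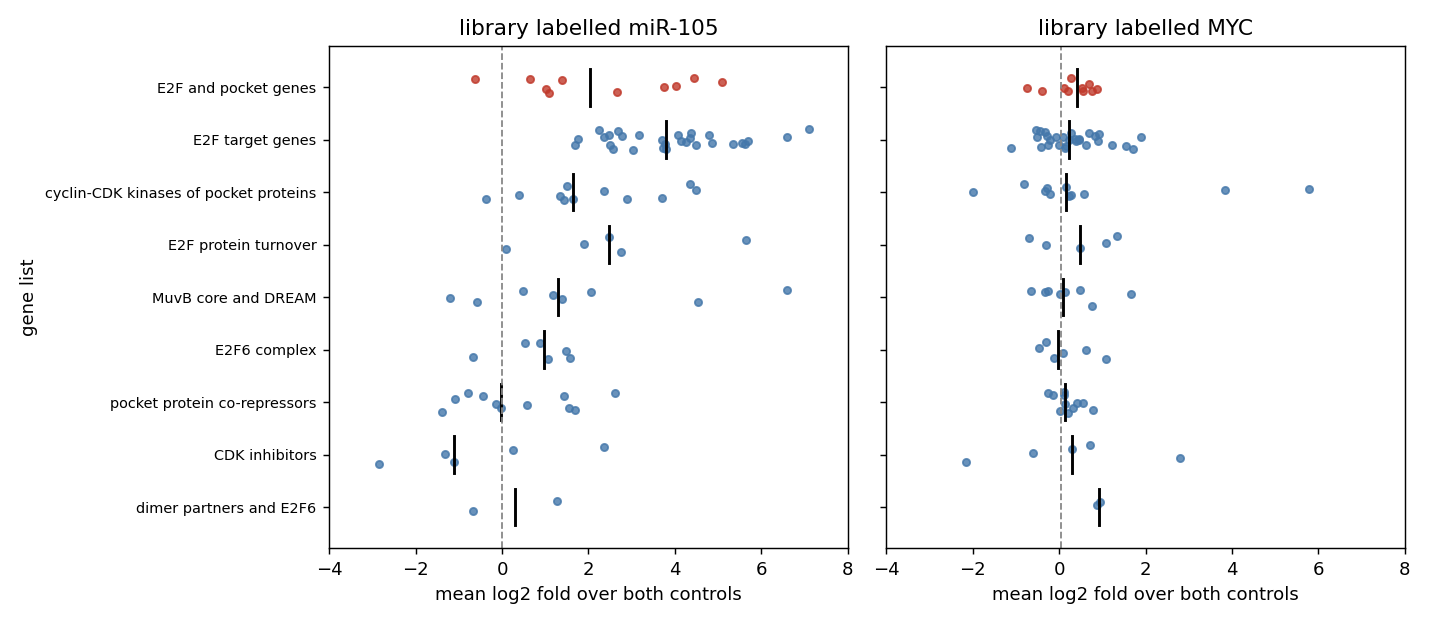
Mean log2 fold over both controls of each gene past the expression filter, by list, in the library labelled miR-105 (left) and MYC (right); black bars are list medians and the dashed line is the median of all genes. All E2F target genes lie at 1.68 or above on the left, and on the right their median is 0.23.

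The genes whose profile over the 4 libraries lay closest to a member were found by the Euclidean distance between centred log2(CPM + 0.5) values. Nearest to E2F1 were COL6A3, RAD51AP1 and TK1, at distances of 0.19, 0.35 and 0.36, and nearest to E2F2 were GINS4, DDIAS and ERCC6L. E2F7 lay closest to MCM6 (0.11), a helicase subunit, and E2F8 to TYMS (0.098), thymidylate synthase. RBL1 lay closest to SSX2IP (0.12), RB1 to ANP32D (0.078), E2F3 to FAM20B (0.057), E2F4 to TSTA3 (0.022) and E2F5 to ARF1 (0.032). Close to RBL2 lay GATAD2B (0.058) and the clock gene PER2 (0.071). With 4 libraries such nearness is a description of these libraries only.

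MiR-105 sequence was read last, since the miR-105 label is the one under which most members differed. MicroRNAs bind target mRNAs through bases 2 to 8, the seed. The mature 5p strand is shown with its seed in capitals, as RefSeq gives it for both gene copies (GRCh38.p14, minus strand, chrX:152392265-152392287 and chrX:152394458-152394480).
hsa-miR-105-5p: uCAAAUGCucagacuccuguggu
The matching 7 bases, GCATTTG, were searched in the longest GENCODE v29 3′ UTR of 9 members. The 3′ UTR of E2F5 was not searched. Of the 9, only RBL1 held the site, at bases 1989 to 1995 of a 3′ UTR of 2410 bases, shown with its flanks and the site in capitals.
RBL1 site: atataaatgaGCATTTGtacat
Of 1772 genes past the filter with a 3′ UTR of like length, 21.5% held the same 7 bases. RBL1 was among the members that were higher in the miR-105 library, at 50.7 CPM against 6.92 and 8.23 in the controls. RBL2, the member lowest there, had 0 matches in 1349 bases. MXI1, a reported miR-105 target added after its values were seen, was at 81.2 and 88.9 CPM in vector and GFP, 14.0 in miR-105 and 79.2 in MYC. The part of miR-105 binding in the levels of MXI1 and of the members was not tested.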

How the data were processed

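Poly(A) RNA-seq of 4 MCF10A libraries, 1 per construct, was used. Per the submitters' processing notes TopHat2, edgeR and hg19 were used; their versions, the read counter, the annotation and the use of strand are not stated. The deposited values were estimated counts, not whole, with totals of 9220845 to 10307368, of the form of edgeR pseudo-counts. Inverting that adjustment (edgeR 4.0.16) at a common dispersion of 0.0553, with vector and GFP as 1 group, gave whole reads for 100% of the 18859 lines (largest residual 1.42e-07, tolerance 1e-05). The inversion and fold rule were tested on simulated data. After 19 repeated lines were dropped, 18840 genes remained.

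CPM used TMM factors of 1.01, 0.987, 0.929 and 1.08 (vector, GFP, miR-105, MYC). The 12484 genes averaging 1 CPM or more were compared by a 2-fold rule on log2(CPM + 0.5), with exact conditional binomial or Poisson 95% intervals. As alternatives, vector and GFP were taken as 1 control group in edgeR's quasi-likelihood test and DESeq2 1.42.0, and scaling, pseudocount, filter, fold threshold and control were varied. Named genes are the 10 members, genes of the fixed lists and the 3 genes nearest each member in profile. AKTIP, C8orf59, MYC and MXI1 were added after values were seen. Members and lists were chosen with earlier results of these data known. Values of 2 genes that the naming rule would take are not reported here.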

Additional observations from a re-analysis of the deposited data

How the results depend on the processing

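The 6 members called in miR-105 were called under every scaling and pseudocount tried. Other thresholds and controls gave between 5 (3-fold threshold, without RB1) and 8 (1.5-fold threshold, adding E2F3 and E2F4). Of the 12484 genes compared, 898 were higher and 1201 lower in miR-105 at 3-fold, and 2997 and 3088 at 1.5-fold. A filter at 5 CPM left 6 calls too, but 4 of them (E2F1, E2F2, E2F7 and E2F8) pass it only through the miR-105 library, so it could not remove them. The 0 called in MYC became 2 at a 1.5-fold threshold (E2F5 and E2F7) and 2 with vector alone as control (E2F7 and RB1). Of the 12484 genes, 2071 were higher and 2146 lower in MYC at 1.5-fold, and 1624 and 1573 with vector alone. The 5 called between miR-105 and MYC became 9 at 1.5-fold, 8 higher and RBL2 lower. Counts over all genes at 1.5-fold were not made for that comparison. The count tests gave 8 (edgeR) and 6 (DESeq2) in miR-105 and 0 in MYC, where the counts at an unadjusted p under 0.05 were 2 and 0. E2F targets called in MYC went from 2 to 4 with vector alone, all higher. They were 5 with GFP alone (4 higher, 1 lower) and 8 at 1.5-fold (7 higher, 1 lower). With GFP alone 1539 of the 12484 genes were higher in MYC and 1784 lower. The target counts with vector alone and at 1.5-fold stand beside the all-gene counts in MYC given above for those settings. No called direction reversed. Library totals alone moved the median log2 fold of all genes from 0.0052 to −0.095 in miR-105 and from 0.036 to 0.14 in MYC, where 1127 higher and 1299 lower genes became 1286 and 1169. In miR-105, 1833 higher and 2071 lower became 1596 and 2278. E2F1, E2F2, E2F7 and E2F8 had at most 30 reads in each control, which limits their folds. No paired analysis was possible because each group held 1 library.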

Other observations

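Over all genes past the filter with a RefSeq promoter window, the 627 with an E2F motif match had a median log2 fold of 0.28 in the library labelled miR-105, against 0.02 for the 9047 without, and 23.9% against 14.4% were at least 2-fold higher than both controls. The 27 genes with 2 or more matches, overlaps on opposite strands included, had a median of 0.87, with 40.7% at least 2-fold higher. E2F1 and RBL1 are among the 27. In the library labelled MYC the medians were 0.11 with a match and 0.04 without, and 7.81% and 8.90% were 2-fold higher. Genes with a miR-105-5p seed match in the longest 3′ UTR, 1647 of them, had a median log2 fold of 0.06 in the library labelled miR-105, and the 7971 without had 0.03. No test was made of these differences.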
